A study of Mus musculus with 4 samples.

Results

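Chemokines and their receptors were followed in the liver of mice that lack Lpiat1 (Mboat7), the enzyme that puts arachidonic acid into phosphatidylinositol, in hepatocytes. The genes were chosen by name: every symbol that starts with Ccl, Cxcl, Ccr, Cxcr or Ackr and a number, together with Cx3cl1, Cx3cr1, Xcl1, Xcr1, Pf4 and Ppbp. Of 69 such symbols in the RefSeq gene table, 60 had a probe matched by transcript accession, out of 23462 matched genes. The 60 genes were 37 ligands, 19 signalling receptors and 4 atypical receptors. The other 9 symbols (Cxcl11, Ccl21b, Ccl21c, Ccl21d, Ccl27b and 4 pseudogenes) had no matched probe and were not analysed here. Ccl21a and Ccl27a have near-identical copies, so their signals may come from more than 1 gene.

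Total liver RNA from male mice on a C57BL/6 background was hybridised to one-colour Agilent arrays at 24 weeks of age. Floxed mice without Cre (Lpiat1 F/F, here F/F) and floxed mice with Alb-Cre (LKO) were fed chow or a high fat diet (HFD) for 18 weeks, from 6 weeks of age, and each of the 4 groups had 1 array. All mice carried the floxed alleles, and the albumin promoter drives Cre in hepatocytes, so that leukocytes, endothelium and stellate cells keep the gene. The sources used here do not say if RNA was pooled over mice. With 1 array per group, no difference below has a replicate check, none was tested, and no p-value is given.

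Chemokines are small secreted proteins that guide leukocytes along gradients through G protein-coupled receptors on the moving cell, while atypical receptors take up chemokines without that signal. In the liver they are made by Kupffer cells, endothelium, stellate cells and stressed hepatocytes, and they draw monocytes, neutrophils and lymphocytes into the tissue. Many inflammatory chemokines are induced through NF-kB or through interferon, and their genes lie in clusters in the genome.

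The promoters of 4 ligands with a match to the NF-kB consensus are shown, because this factor is known to induce the family, together with that of Cxcl13, the member with the most negative genotype difference. Each run is the 250 bases before the annotated start, 5′ to 3′, from the RefSeq promoter table on build GRCm38.p6. Capitals mark the NF-kB consensus on either strand in Cxcl1 (chr5:90890995-90891244, plus strand), Cxcl2 (chr5:90903649-90903898, plus strand), Cxcl10 (chr5:92348890-92349139, minus strand) and Ccl9 (chr11:83578637-83578886, minus strand). In Cxcl13 (chr5:95956689-95956938, plus strand) they mark a looser form of the site, GGGNNNNNCC.
Cxcl1: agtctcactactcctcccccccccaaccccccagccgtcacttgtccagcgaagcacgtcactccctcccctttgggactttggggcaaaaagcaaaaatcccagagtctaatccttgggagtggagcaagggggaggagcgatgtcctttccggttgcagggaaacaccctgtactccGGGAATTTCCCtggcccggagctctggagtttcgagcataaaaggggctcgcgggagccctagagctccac
Cxcl2: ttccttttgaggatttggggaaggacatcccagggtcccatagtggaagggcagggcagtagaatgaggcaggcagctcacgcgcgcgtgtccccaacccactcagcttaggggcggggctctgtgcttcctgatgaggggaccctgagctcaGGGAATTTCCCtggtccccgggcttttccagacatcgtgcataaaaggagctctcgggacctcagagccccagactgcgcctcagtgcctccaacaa
Cxcl10: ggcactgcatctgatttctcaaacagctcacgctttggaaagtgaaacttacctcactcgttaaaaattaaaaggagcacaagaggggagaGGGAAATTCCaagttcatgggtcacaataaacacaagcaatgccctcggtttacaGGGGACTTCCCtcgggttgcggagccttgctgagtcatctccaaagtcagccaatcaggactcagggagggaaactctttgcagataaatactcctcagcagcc
Ccl9: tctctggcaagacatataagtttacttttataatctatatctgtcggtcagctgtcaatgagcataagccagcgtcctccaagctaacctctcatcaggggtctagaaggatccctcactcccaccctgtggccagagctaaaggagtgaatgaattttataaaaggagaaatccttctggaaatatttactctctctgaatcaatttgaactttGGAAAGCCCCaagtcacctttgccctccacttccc
Cxcl13: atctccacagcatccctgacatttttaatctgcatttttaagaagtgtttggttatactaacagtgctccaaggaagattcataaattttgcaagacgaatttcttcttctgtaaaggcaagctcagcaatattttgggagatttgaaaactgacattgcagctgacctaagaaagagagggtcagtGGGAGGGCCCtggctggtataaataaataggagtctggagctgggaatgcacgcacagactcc

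Cxcl1 and Cxcl2, neighbouring genes for neutrophil attractants, held the same 11-base match GGGAATTTCCC, 71 to 61 bases before the start in Cxcl1 and 97 to 87 bases before it in Cxcl2. Around it they shared a run of 14 bases, the 4th longest among 1035 pairs of member promoters, where the median pair shared 8 bases. Cxcl10, an interferon-inducible ligand, held 2 matches, GGGAAATTCC at 159 to 150 and GGGGACTTCCC at 104 to 94 bases before the start. Ccl9 held GGAAAGCCCC at 35 to 26 bases before it. Of the 60 genes, 46 had an entry in the promoter table. The consensus lay in 10 of these 46 promoters (21.7%) and in 7.01% of all 27025 promoters of the same length. Besides the 4 shown, these were Ackr2, Ccl1, Ccl20, Ccr1, Ccr3 and Cxcl3. The looser form GGGNNNNNCC lay in 25 of the 46 (54.3%) against 45.4% of all, and the interferon gamma activated site TTCNNNGAA in 4 (8.70%) against 7.18%. Of 7 members with an entry that were at least 2-fold higher in LKO on HFD, 2 held the consensus (Cxcl1 and Ccl9), and 2 held the looser form. Both strands were searched, and matches to the consensus can also be matches to GGGNNNNNCC. These matches describe letters in a window and say nothing of binding.

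Levels are given as the relative signal, the processed signal of the brightest probe of a gene in percent of the 75th percentile of its array. Differences are log2 differences of these values, and "2-fold" means a log2 difference of 1. A number in parentheses after a fold, or after a pair of levels, is the log2 difference, LKO minus F/F or HFD minus chow. Where a probe was not well above background on 1 of both arrays, its difference is a bound ("at least"), set against the higher of its own dim signal and the lowest signal counted as well above background on that array. A bound has a value only through the brighter array, so its direction is fixed. Of the replicate spots that were well above background, 2 spots of one probe on one array differed with a SD of 0.0963 (log2). The SD was 0.436 for signals under 30, which holds for the dimmest members, and 0.0758 for signals of 100 or more. Levels of different genes come from different probes and were not set against each other. Sums over marker lists weigh the brightest probes most.

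Some facts of whole arrays stand beside the results. The spots well above background made up 54.2% (F/F) and 53.0% (LKO) of the array on chow, and 54.6% (F/F) and 57.0% (LKO) on HFD. Mboat7, measured by 1 probe, had a relative signal of 497% (F/F) and 404% (LKO) on chow, and 449% (F/F) and 372% (LKO) on HFD. Its log2 difference was -0.30 on chow and -0.27 on HFD, and whether the probe lies in the deleted part of the gene is not known here. All 8 hepatocyte markers were well above background on every array. On HFD, 7 of these 8 were lower in LKO (median -0.25). All 7 exocrine pancreas markers were higher there (median 1.90) and lower in LKO on chow (median -0.92), with summed signals, in multiples of the 75th percentile, of 22.7 (F/F) and 13.6 (LKO) on chow, and 11.9 (F/F) and 44.6 (LKO) on HFD. Their part in the chemokine values was not tested.

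Of the 60 genes, 33 passed the scanner's call of well above background on each of the 4 arrays (55.0%, against 59.6% of all genes). Another 14 passed on some and 13 on none (21.7%, against 31.9% of all genes). The number was 38 (F/F) and 33 (LKO) on chow, and 43 (F/F) and 47 (LKO) on HFD. Over all spots the share was also lowest on LKO chow (53.0%) and highest on LKO HFD (57.0%). The 13 genes that were not well above background on any array were the ligands Ccl1, Ccl22, Ccl26, Ccl28, Cxcl3, Cxcl15 and Cxcl17 and the receptors Ccr1, Ccr1l1, Ccr4, Ccr10, Cxcr1 and Xcr1. The 4 genes above background on LKO HFD alone (6.67%, against 1.99% of all genes) were Ccl11, Ccl12, Ccl20 and Ccr3. Another 5 were above background on both HFD arrays and on neither chow array (8.33% against 1.41%), namely Ccl7, Ccr6, Cxcl2, Cxcr5 and Xcl1. Among the 33 genes measured everywhere, 21 had their highest relative signal on LKO HFD (63.6%, against 25.7% of all such genes). The others were 8 on F/F chow (24.2% against 30.3%), 0 on LKO chow (0% against 23.4%) and 4 on F/F HFD (12.1% against 20.6%). In bulk tissue, fewer cells of a type and less RNA per cell cannot be told apart.

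**Figure D1:**
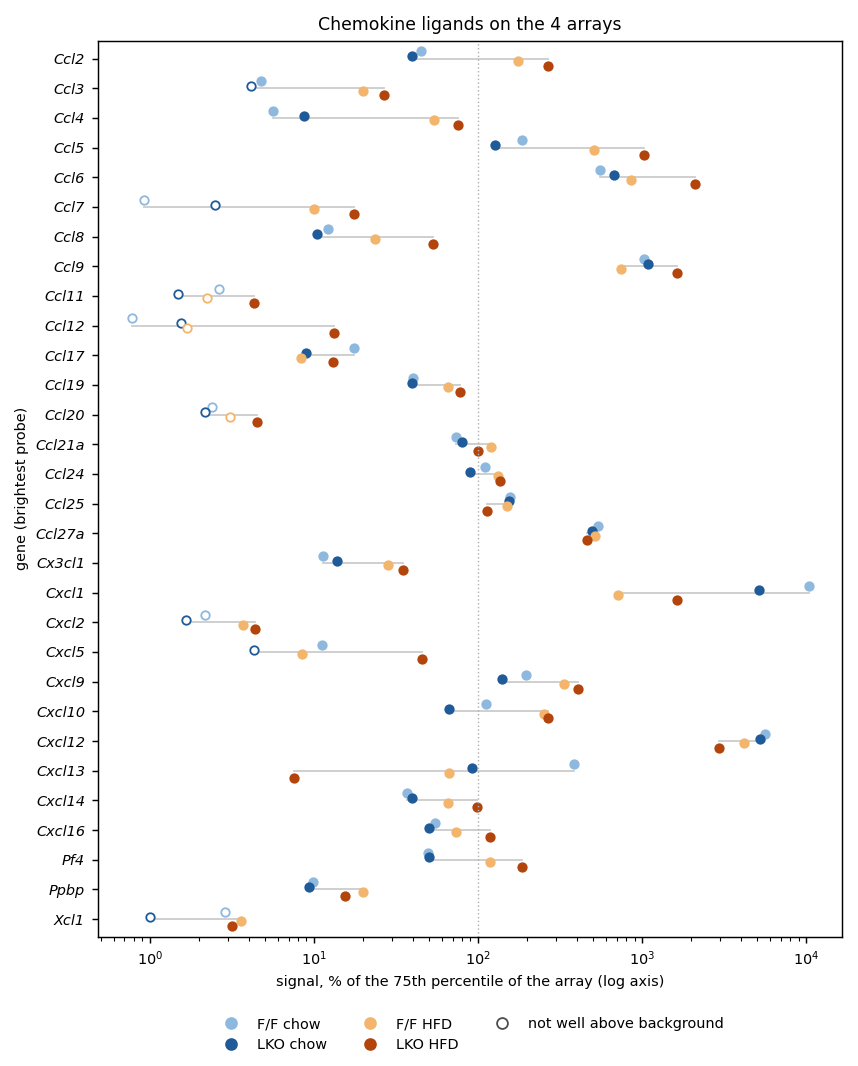
Relative signal (percent of the 75th percentile of the array, log axis) of the 30 ligands that were well above background on at least 1 of the 4 arrays. Each point is 1 array, open where the probe was not well above background, and the dotted line is the 75th percentile. Cxcl1 and Cxcl13 have their highest points on F/F chow, whereas most of the inflammatory Ccl ligands have theirs on LKO HFD.

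The comparison of LKO with F/F on HFD asks how the loss of the enzyme bears on the chemokines of the fat-fed liver. Of 47 members with a value, 37 were higher and 10 lower in LKO, with a median log2 difference of 0.44, beside -0.03 over all genes. Of these, 4 (Ccl11, Ccl12, Ccl20 and Ccr3) were bounds that could only count as higher, and the median is the bound of Ccl11. Over the 43 measured on both arrays, 33 were higher and 10 lower, with a median of 0.43, beside -0.04 over all genes so measured. Higher were 44.6% of all genes so measured, and 45.9% of all genes with a value. At least 2-fold higher were 10 members (21.3%), beside 2.36% of all genes with a value, and at least 2-fold lower was 1 (2.13%), beside 1.91% of all genes. The 10 were 7 ligands (Cxcl5, Ccl12, Ccl6, Cxcl1, Ccl8, Ccl9 and Ccl5) and 3 receptors, among them Ccr6 and Cxcr6. Of these, 9 were measured on both arrays and Ccl12 was a bound. Receptors measured on both arrays were higher in 11 of 12 cases (median 0.79), and ligands in 20 of 27 (median 0.43). The 4 atypical receptors stayed within 2-fold, between -0.44 and 0.21.

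Among ligands that attract neutrophils through Cxcr2, Cxcl5 had a relative signal of 11.2% on F/F chow, and 8.40% (F/F) and 45.3% (LKO) on HFD, and was not well above background on LKO chow at 4.33%. On HFD it was thus 5.39-fold higher in LKO (2.43). Cxcl1 had 10358% (F/F) and 5195% (LKO) on chow, and 711% (F/F) and 1632% (LKO) on HFD. It was high on both chow arrays and, among the HFD arrays, 2.30-fold higher in LKO (1.20). Cxcl2 was near its limit of detection, with 3.69% in F/F against 4.38% in LKO on HFD and neither chow array well above background. The receptor Cxcr2 ran between 6.26% and 7.94% over the 4 arrays and was slightly lower in LKO on HFD (-0.17). Of 8 neutrophil markers with a value, 6 were lower in LKO on HFD (median -0.24), from Csf3r at -0.13 and Ly6g at -0.19 to S100a8 at -0.68 and S100a9 at -0.74. The other 2 were higher, Elane at 0.10 and the dim Mpo at 0.65. Their summed signal, most of it from the bright probe of Csf3r, was 74.96 (F/F) and 67.8 (LKO) on chow, and 67.7 (F/F) and 55.3 (LKO) on HFD. The part of neutrophils in these values was not tested.

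Ccl6 and Ccl9 are mouse ligands of Ccr1 made largely by myeloid cells. Ccl6 had a relative signal of 554% (F/F) and 678% (LKO) on chow, and 851% (F/F) and 2099% (LKO) on HFD. The first 3 arrays lay within 2-fold of each other, and LKO HFD was 2.47-fold above F/F HFD (1.30). Ccl9 had 1033% (F/F) and 1089% (LKO) on chow, and 749% (F/F) and 1632% (LKO) on HFD. It differed by 2.18-fold between the HFD arrays (1.12) and by 0.08 between the chow arrays. Their receptor Ccr1 was not well above background on any array.

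The genes of the monocyte attractants Ccl2, Ccl7 and Ccl12 lie side by side with that of Ccl8, which in the mouse acts on Ccr8. Ccl12 was well above background on LKO HFD alone, at 13.3%, which made it at least 4.19-fold higher than on F/F HFD (2.07). Ccl8 had 12.2% (F/F) and 10.5% (LKO) on chow, and 23.6% (F/F) and 53.3% (LKO) on HFD, 2.25-fold higher in LKO on HFD (1.17). Ccl2, the main ligand of Ccr2, had 45.0% (F/F) and 39.8% (LKO) on chow, and 175% (F/F) and 268% (LKO) on HFD. Its genotype difference on HFD, 1.53-fold (0.62), was smaller than the gap between the diets. Ccl7 had 9.95% in F/F against 17.5% in LKO on HFD (0.82) and was not well above background on chow. The receptor of Ccl2, Ccl7 and Ccl12, Ccr2, which lets inflammatory monocytes leave the marrow and enter tissue, had 6.49% on F/F chow, and 13.3% (F/F) and 25.6% (LKO) on HFD. It was just under 2-fold higher in LKO on HFD (0.95).

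Ccl3, Ccl4 and Ccl5 attract T cells and macrophages. Ccl5 had 185% (F/F) and 127% (LKO) on chow, and 513% (F/F) and 1029% (LKO) on HFD, which made LKO 2.01-fold higher on HFD. F/F and LKO lay further apart on HFD than on chow. Ccl3 and Ccl4, whose genes lie in the same cluster, differed less between the HFD arrays, by 0.43 and 0.49.

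Ccr6, the receptor of Ccl20 on B cells and T helper cells, had 4.69% in F/F against 11.8% in LKO on HFD, 2.51-fold higher in LKO (1.33). These are dim spots, and neither chow array was well above background. Cxcr6, which keeps liver T and natural killer T cells near the membrane-bound ligand Cxcl16, had 43.2% (F/F) and 33.5% (LKO) on chow, and 20.6% (F/F) and 45.6% (LKO) on HFD. The F/F HFD array was thus the low one, with LKO 2.22-fold above it (1.15). Its second probe gave 1.26. Cx3cr1, the fractalkine receptor of monocytes and macrophages, had 8.04%, 12.6%, 33.9% and 67.7% in the same order, 1.99-fold higher in LKO on HFD and just under the 2-fold line. Its second probe, dimmer, gave 1.31. Cxcr3, the receptor of Cxcl9 and Cxcl10 on effector T cells, had 14.7% in F/F against 24.8% in LKO on HFD (0.76).

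Cxcl13, which gathers B cells into follicles through Cxcr5, was the 1 member at least 2-fold lower in LKO on HFD. It had a relative signal of 385% (F/F) and 92.2% (LKO) on chow, and 66.4% (F/F) and 7.52% (LKO) on HFD. All 4 arrays were well above background, with F/F chow the highest and LKO HFD the lowest. LKO was 8.84-fold lower than F/F on HFD (-3.14) and 4.18-fold lower on chow (-2.06). Its receptor Cxcr5 was dim, at 3.80% in F/F against 4.34% in LKO on HFD. Cxcl12, which holds Cxcr4-bearing cells in place and is made by stromal cells, had 4192% in F/F against 2966% in LKO on HFD (-0.50), and a second probe gave -0.09.

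**Figure D2:**
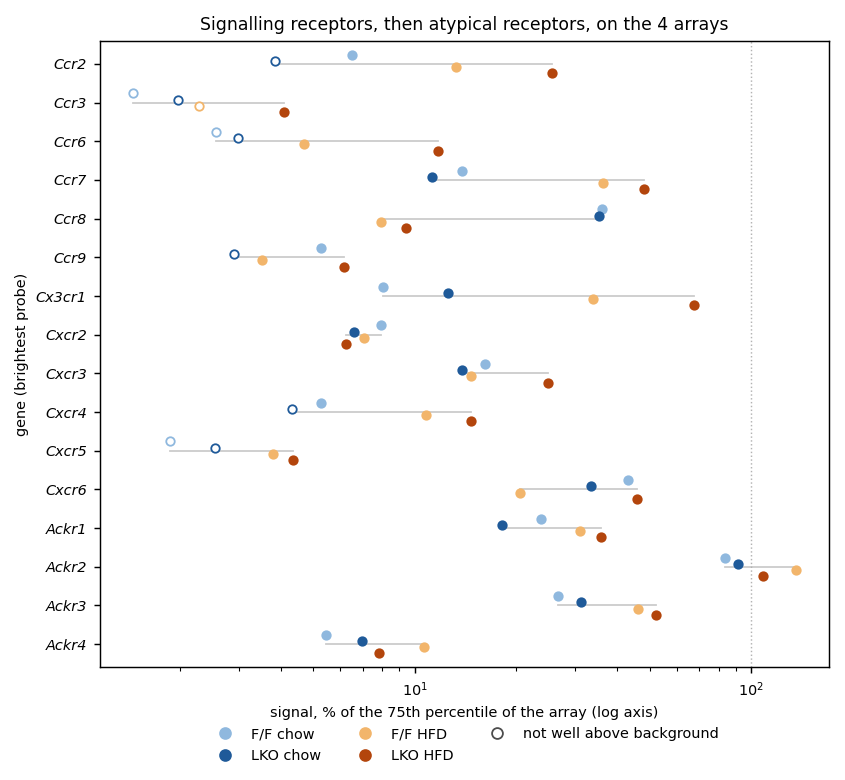
Relative signal (percent of the 75th percentile of the array, log axis) of 12 signalling and 4 atypical receptors that were well above background on at least 1 array. Each point is 1 array, open where the probe was not well above background. Ccr2, Ccr6, Ccr7, Cx3cr1 and Cxcr4 have their highest points on LKO HFD, and Ccr8 is high on both chow arrays.

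Normexp background correction with an offset, which pulls dim values together, left 4 of the 10 at 2-fold in LKO on HFD (Ccl6 at 1.28, Cxcl1 at 1.22, Ccl9 at 1.16 and Cxcl5 at 1.04), while the share of all genes went from 2.36% to 0.613%. Under it Ccl5 had 0.96, Ccl8 0.69, Cxcr6 0.69, Ccl12 0.55, Ccr6 0.27 and Cxcl13 -1.63.

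On chow, the same comparison asks what the loss of the enzyme does without the fat load. Of 38 members with a value, 12 were higher and 26 lower in LKO, with a median of -0.15 beside 0.00 over all genes. The 5 bounds among them could only count as lower, and of the 33 measured on both arrays 12 were higher and 21 lower (median -0.095, beside 0.0078 over all genes so measured). Higher were 51.6% of all genes so measured, and 50.7% of all genes with a value. At least 2-fold higher were 0 members, beside 1.11% of all genes, and at least 2-fold lower were 2 (5.26%), beside 1.03% of all genes. These were Cxcl13, described above, and Cxcl5, which was at least 2.58-fold lower (-1.37) and lost this with normexp correction (-0.24). Cxcl1 was just inside 2-fold (1.99-fold lower, and at -1.02 with normexp correction), as was Ccl17, a ligand of Ccr4 made by dendritic cells, with 17.6% on F/F chow and 8.97% on LKO chow (-0.97). Among the interferon-inducible ligands, Cxcl10 had 111% on F/F chow and 66.9% on LKO chow (-0.74), and Cxcl9 196% and 141% (-0.48). Both were lower on LKO chow, and Ccl5 also differed that way (-0.55). Among the higher differences on chow were Ccl4 (0.65) and Cx3cr1 (0.64), both within 2-fold.

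**Figure D3:**
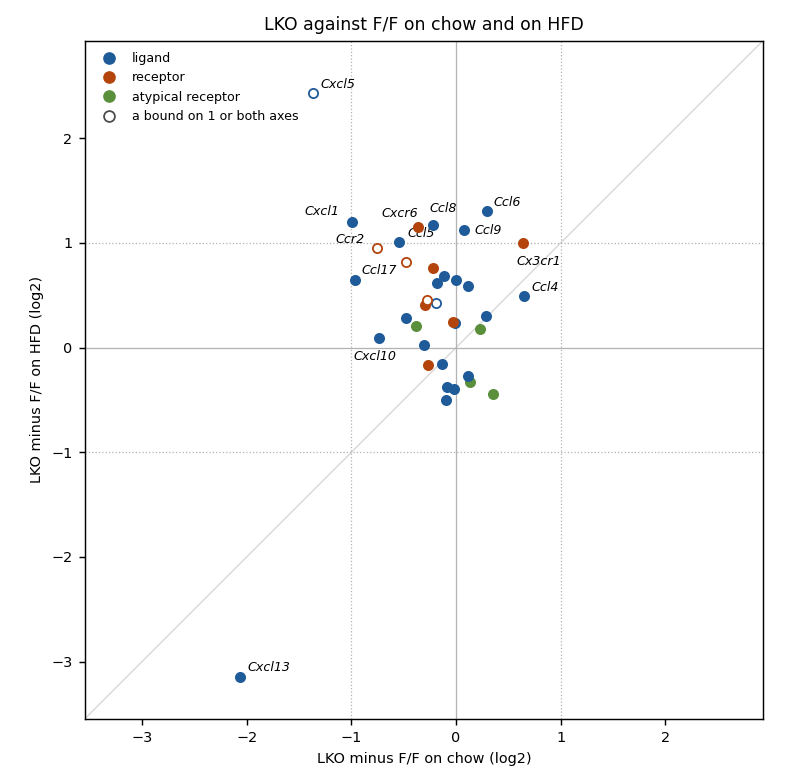
Log2 difference LKO minus F/F on chow (x axis) against that on HFD (y axis) for 37 of the 38 members with a value in both. Open points are bounds on 1 or both axes, dotted lines mark 2-fold and the diagonal marks equal differences. Cxcl13 lies far below 0 on both axes, and Cxcl5, Cxcl1, Ccl17 and Ccr2 lie left of 0 and above it.

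The comparison of HFD with chow asks which chemokines go with the diet in each genotype. In F/F, 14 of the 43 members that had a value lay at least 2-fold higher on HFD (32.6%), beside 5.21% of all genes, and 5 (11.6%) were at least 2-fold lower, beside 2.94%. The median was 0.70, beside -0.02 over all genes, and 0.72 over the 38 measured on both arrays. In LKO, 21 of 46 were at least 2-fold higher (45.7%), beside 8.12% of all genes, and 3 (6.52%) at least 2-fold lower, beside 4.07%. The median was 0.91, beside -0.07 over all genes, and 0.84 over the 33 measured on both arrays. Of the members at least 2-fold higher, 13 of 14 in F/F and 14 of 21 in LKO were measured on both arrays, and the others were bounds. Cell markers moved with the diet as well. Hepatocyte markers were lower on HFD in 8 of 8 cases in both genotypes (median -0.23 in F/F and -0.55 in LKO). Monocyte and macrophage markers were higher in 11 of 11 (0.90 and 1.27), and stellate cell markers in 7 of 7 (0.60 and 0.75). Among the 11, Gpnmb was a bound in both genotypes, which could only count as higher. Some lists differed between the genotypes. Exocrine pancreas markers were lower on HFD in 7 of 7 in F/F (median -0.73) and higher in 7 of 7 in LKO (2.07). T cell markers were higher on HFD in 2 of 9 in F/F (-0.20) and 7 of 10 in LKO (0.74, with Cd8a a bound). The part of these cells in the diet differences was not tested. The genotype and diet comparisons share arrays, so their values are not independent of each other.

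Ccl4, Ccl3, Ccl2 and Ccl5 were among the members with the widest gaps in both genotypes. Ccl4, a macrophage and T cell product, had 5.60% (F/F) and 8.76% (LKO) on chow, and 53.8% (F/F) and 75.5% (LKO) on HFD. The HFD arrays were 9.61-fold above chow in F/F (3.26) and 8.62-fold in LKO (3.11), and a second probe gave at least 3.17 in F/F and 2.88 in LKO. Ccl3 had 4.76% on F/F chow, and 20.0% (F/F) and 26.9% (LKO) on HFD, which was 4.20-fold higher on HFD in F/F (2.07). In LKO, where chow was not well above background, it was at least 6.46-fold higher (2.69). Ccl2 was 3.89-fold higher on HFD in F/F (1.96) and 6.75-fold in LKO (2.75). Ccl5 differed by 2.77-fold in F/F (1.47) and 8.13-fold in LKO (3.02), where its chow array was the lowest of the 4. Ccl7 was at least 2.83-fold higher on HFD in F/F and at least 4.63-fold in LKO.

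Of the receptors, Cx3cr1 was 4.22-fold higher on HFD in F/F (2.08) and 5.39-fold in LKO (2.43), and its ligand Cx3cl1 (fractalkine) 2.49-fold in F/F (1.31) and 2.50-fold in LKO (1.32). Ccr7, which takes dendritic and naive T cells to lymphoid tissue, had 13.9% (F/F) and 11.3% (LKO) on chow, and 36.2% (F/F) and 48.0% (LKO) on HFD. Both HFD arrays lay above both chow arrays, with log2 differences of 1.39 in F/F and 2.09 in LKO. Its ligand Ccl19 was higher by 0.73 and 0.97. Ccr2 was 2.05-fold higher in F/F (1.03) and at least 6.65-fold in LKO (2.73), since LKO chow was not well above background at 3.85%. Cxcr4, the receptor of Cxcl12, was 2.05-fold higher in F/F (1.04) and at least 3.41-fold in LKO (1.77), whereas Cxcl12 itself had -0.43 and -0.83. A second, dimmer Cxcl12 probe gave 0.13 in F/F and -0.08 in LKO.

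Cxcl10 was 2.26-fold higher on HFD in F/F (1.17) and 4.00-fold in LKO, and Cxcl9 was higher by 0.77 and 1.53. The platelet and macrophage chemokine Pf4 had 49.88% (F/F) and 49.95% (LKO) on chow, and 119% (F/F) and 186% (LKO) on HFD, with differences of 1.25 and 1.90. Ppbp, also a platelet chemokine, was 2.02-fold higher in F/F (1.02) and 1.66-fold in LKO (0.73). None of the 6 platelet markers was well above background on F/F chow, and 4 were on LKO HFD. Cxcl16 differed by 0.43 in F/F and 1.23 in LKO, while its second probe gave 0.53 and 0.99. Cxcl14 differed by 0.84 and 1.32, but its second, dim probe was lower on HFD, with bounds of -0.46 in F/F and -0.95 in LKO.

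Called at least 2-fold higher on HFD in LKO and not in F/F were Cxcl5 (at least 10.5-fold), Ccl8 (5.09-fold), Ccl12 (at least 3.51-fold), Ccl6 (log2 difference 1.63), Ccr6 (at least 1.63), Cxcl9, Cxcl14 and Cxcl16. Ccl12 had no value in F/F, and Ccr6 had a bound there (at least 0.41), so both may also reach 2-fold in F/F. Ccl8 was just under 2-fold in F/F (0.95). The share of all genes called in LKO alone was not counted. The difference between the genotypes in these members was not tested.

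Lower on HFD at 2-fold in both genotypes were Cxcl13, Cxcl1 and Ccr8. Cxcl1 was 14.6-fold lower on HFD in F/F (-3.87) and 3.18-fold in LKO (-1.67). Cxcl13 was 5.80-fold lower in F/F (-2.54) and 12.3-fold in LKO (-3.62). Ccr8, a receptor of regulatory T cells and T helper cells, had 36.0% (F/F) and 35.2% (LKO) on chow, and 7.96% (F/F) and 9.45% (LKO) on HFD. Both chow arrays lay well above both HFD arrays, 4.52-fold in F/F (-2.18) and 3.73-fold in LKO (-1.90), while the genotypes differed by at most 0.25 on either diet. In F/F alone, Ccl17 (-1.07) and Cxcr6 (-1.07) were also 2-fold lower on HFD, while in LKO they had 0.55 and 0.45. Both lost this in F/F with normexp correction (-0.38 and -0.71), and lay just under 2-fold with the deposited table not rescaled.

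**Figure D4:**
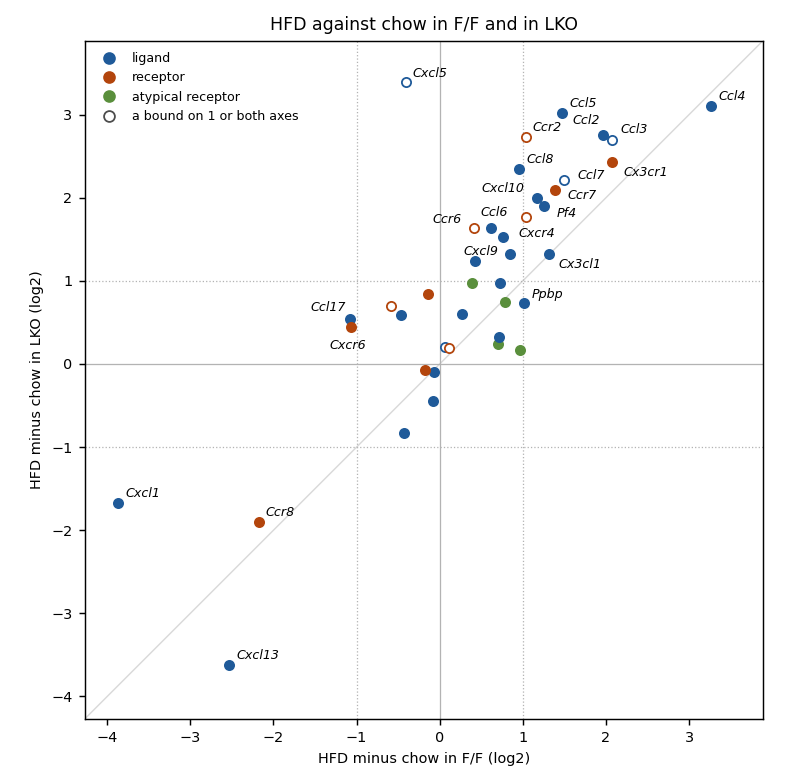
Log2 difference HFD minus chow in F/F (x axis) against that in LKO (y axis) for 41 of the 42 members with a value in both. Open points are bounds on 1 or both axes, dotted lines mark 2-fold and the diagonal marks equal differences. Ccl4 lies near the diagonal, Cxcl5, Ccl5 and Ccr2 above it, and Cxcl1, Cxcl13 and Ccr8 at the lower left.

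With normexp correction, 3 of the 14 stayed at 2-fold in F/F (Ccl2 at 1.60, Ccl5 at 1.41 and Ccl4 at 1.36), and the number in LKO was 10. The share of all genes under it was 1.41% in F/F and 2.92% in LKO. Cxcl1 then had -3.86 in F/F and -1.62 in LKO, Cxcl13 -2.20 and -2.16, and Ccr8 -1.08 and -1.11.

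Ligands were set beside their receptors for 40 known mouse pairs, of which 39 were on the array. On HFD, both sides were measured on both arrays in 23 pairs for LKO against F/F. Both were higher in 11, both lower in 3 and apart in 9. On chow, of 15 such pairs, both were higher in 3, both lower in 7 and apart in 5. Pairs with a bound, whose direction is fixed, were left out. Ligands measured on both arrays were higher in 74.1% of cases on HFD and 31.8% on chow, and signalling receptors in 91.7% and 28.6%. Whether the sides of a pair go together beyond these shares was not tested. Of the 9 pairs apart on HFD, 3 joined Cxcr2 to Cxcl1, Cxcl2 or Cxcl5, and 2 joined Cxcl12 to Cxcr4 or to the scavenger Ackr3. The scavenger Ackr4 was lower in LKO on HFD (-0.44), as were its ligands Ccl21a (-0.27) and Ccl25 (-0.39), whereas Ccl19 was higher (0.24). For Ccl25, a dimmer probe gave 0.37 and another -0.37, so its direction depends on the probe. In 11 of the 39 pairs 1 side or both had no value on HFD, among them the 4 pairs of Ccr1.

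For HFD against chow, both sides were at least 2-fold higher in 5 of 20 pairs measured on both arrays in F/F, among them Ccr2 with Ccl2, and Cx3cr1 with Cx3cl1. In LKO there were 3 of 15, among them Cx3cr1 with Cx3cl1. Taken apart, 33.3% of ligands and 50% of signalling receptors so measured were at least 2-fold higher in F/F. In LKO these shares were 50% and 42.9%. The pairs share receptors, so they are not separate observations.

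**Figure D5:**
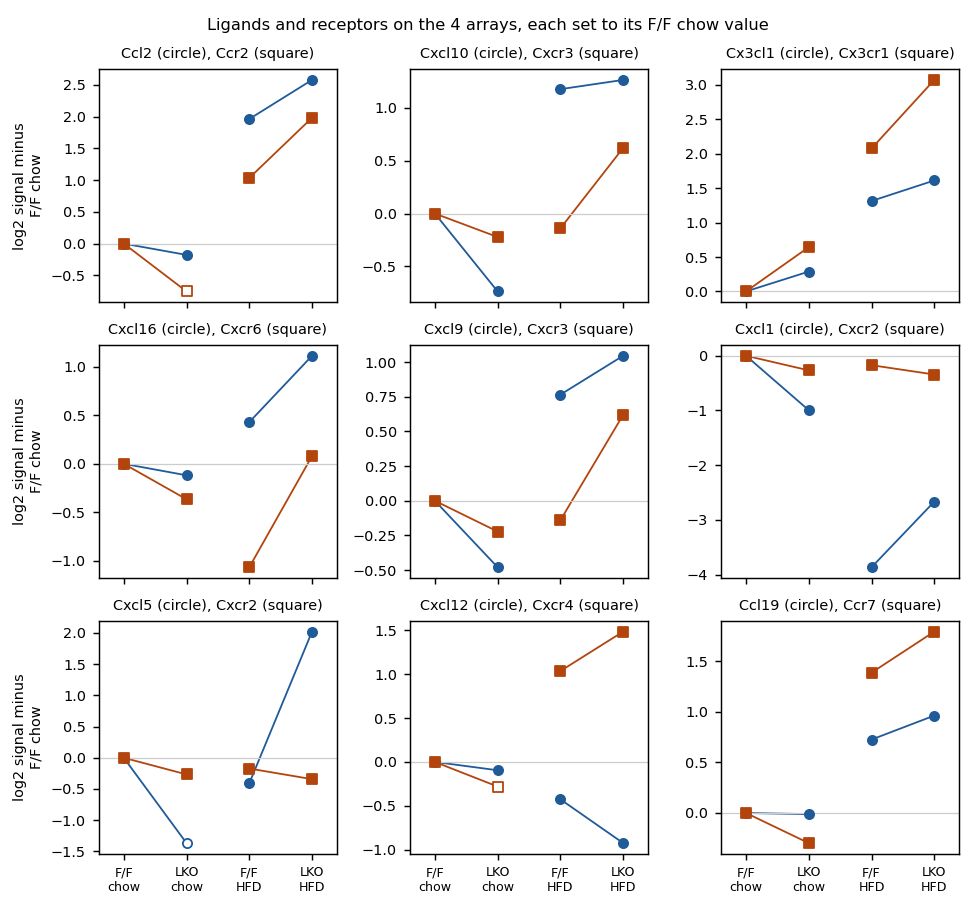
Log2 relative signal of a ligand (circles) and its receptor (squares) on the 4 arrays, each minus its own F/F chow value, for 9 pairs. Panels have their own y axes, lines join F/F to LKO within a diet, and open symbols were not well above background. Ccl2 and Ccr2, and Cx3cl1 and Cx3cr1, have both sides highest on LKO HFD, while Cxcr2 stays nearly flat beside Cxcl1 and Cxcl5.

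Members that lie within 500 kb of each other were also read together. In the cluster of Ccl2, Ccl7, Ccl11, Ccl12, Ccl8 and Ccl1, LKO was above F/F on HFD for the 3 genes measured on both arrays (median 0.82), and Ccl11 and Ccl12 were bounds. All 5 of the cluster of Ccl5, Ccl9, Ccl6, Ccl3 and Ccl4 were also higher (median 1.004). On chow, the second cluster had 3 genes higher and 1 lower among 4 measured on both arrays (median 0.18). In the cluster of Cxcl1, Cxcl2, Cxcl3, Cxcl5, Cxcl15, Pf4 and Ppbp, 4 of 5 were higher in LKO on HFD, and Ppbp was lower (-0.37). The diet split this cluster in F/F, where Pf4 and Ppbp were at least 2-fold higher on HFD and Cxcl1 was lower.

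Genes that carry the chemokine signal inside leukocytes were read from a list of 30, which holds G protein subunits, phosphoinositide 3-kinase parts, Rac regulators, arrestins and RGS proteins. In LKO on HFD, 27 of 30 were higher (median 0.25), beside 45.9% of all genes, and 0 reached 2-fold, beside 2.36%, with Rgs1, a brake on chemokine receptor signalling, at 0.94 and Pik3r5, a subunit of the kinase that chemokine receptors activate, at 0.83. Among the 27, Pik3cg was a bound that could only count as higher. For HFD against chow, 1 of 29 was at least 2-fold higher in F/F (Rgs2, 3.45% beside 5.21% of all genes) and 10 of 29 in LKO (34.5% beside 8.12%), among them Rgs1 (1.76), Rgs2 (1.66) and Pik3r5 (1.85). Of 13 genes with a value on a list of other chemoattractant receptors and chemokine-like proteins, 3 were at least 2-fold higher in LKO on HFD (23.1%, beside 2.36% of all genes). They were Cd74 (1.19), a receptor for the cytokine Mif and the class II invariant chain, and the complement receptors C3ar1 (1.12) and C5ar1 (1.04).

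Markers of the cells that carry these receptors moved with some of the values. On HFD, all 11 monocyte and macrophage markers were higher in LKO (median 0.84), and their summed signal, in multiples of the 75th percentile, was 41.4 (F/F) and 41.0 (LKO) on chow, and 60.0 (F/F) and 86.1 (LKO) on HFD. The 5 NK cell markers with a value were all higher (median 0.64, sums of 1.10, 0.906, 1.46 and 2.75 in the same order), with Ncr1 and Eomes not well above background on any array. Of 10 T cell markers, 7 were higher (median 0.67), although their sum was lower, at 23.0 in F/F against 21.5 in LKO on HFD, and Cd3e differed by 0.07. That sum came mostly from the bright probes of Cd4 (-0.22) and Cd247 (-0.14). Among Kupffer cell markers 4 of 6 were higher (median 0.36, sums of 112 and 138 on the HFD arrays), and the other 2 were Marco at -1.64 and Timd4 at -0.95. On chow, 0 of 9 T cell markers (median -0.22) and 0 of 5 NK cell markers (median -0.44) were higher in LKO. Of the other lists on HFD, stellate cell markers were higher in LKO in 7 of 7 cases (0.43), cholangiocyte in 4 of 4 (0.78), dendritic cell in 5 of 6 (0.47), B and plasma cell in 4 of 6 (0.41), sinusoidal endothelium in 4 of 7 (0.11) and platelet in 2 of 4 (-0.32), with medians in parentheses. On HFD, Cd8a (T cell), Epcam (cholangiocyte) and Gp1bb (platelet) were bounds, which could only count as higher. The part of the listed cells in the chemokine and receptor values was not tested.

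Of the 60 genes, 14 had more than 1 probe. In LKO against F/F on HFD, 10 of them had at least 2 measured probes, and these agreed in sign in 8, with the widest gap, 0.76, in Ccl25. On chow the sign was shared in 4 of 8.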

How the data were processed

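Spot intensity was deposited by the authors as written by Agilent Feature Extraction 12.0.3.1, along with flags for outliers and for signals well above background, and a table of values that equals these intensities times 1 factor per array (2.10 to 2.63) whose origin is not given in the sources used here. Deposited flags, a yes or no per spot, were read as other values. The 4 arrays lay on 1 slide with 1 scan. The log2 processed signal of each spot was taken relative to the 75th percentile over the array (numpy 2.4.6 and pandas 2.3.3 under Python 3.11.15). The signals at that percentile were 222 (F/F) and 213 (LKO) on chow, and 263 (F/F) and 296 (LKO) on HFD. Spots of one probe were averaged without outlier flags (76 to 132 spots per array), and 0 spots were saturated.

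Of 56605 probes, 33767 (59.7%) matched a symbol through the transcript accession and the RefSeq table of GRCm38.p6, and the brightest probe stood for a gene. No value was given to a gene that was dim on both arrays of a comparison. A gene dim on 1 got a bound, or no value where its bright signal did not exceed the limit after scaling (Xcl1 for HFD against chow in LKO). Named were members at least 2-fold apart in at least 1 of the 4 comparisons, and pairs with both sides well above background on at least 1 array. The members, lists and pairs were chosen with earlier results of these data known. The NF-kB consensus, the deposited table without rescaling and the counts over genes measured on both arrays were chosen after seeing the data. Results for 2 genes are not reported here, and these genes enter only counts and medians. The steps were tested on simulated data. The number of arrays limits the precision.

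Alternatives were quantile normalisation, normexp on median spot and background signals with an offset of 50 (R 4.3.3, limma 3.58.1), the percentile over detected probes, the deposited table, genes above background on all 4 arrays, no filter or floor, the mean of all probes and a threshold of 1.5-fold. Figures were drawn with matplotlib 3.10.9.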

Additional observations from a re-analysis of the deposited data

Results flagged for a closer look

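In 4 members LKO lay at least 1.5-fold above F/F on HFD and at least 1.5-fold below it on chow. The share of all genes that meet this rule was not counted. The gap between both log2 differences was 3.80 for Cxcl5 (2.43 on HFD and at most -1.37 on chow, a bound), 2.20 for Cxcl1 (1.20 and -0.995), 1.70 for Ccr2 (0.95 and at most -0.75, a bound) and 1.62 for Ccl17 (0.65 and -0.97). With normexp correction the values on HFD and chow were 1.04 and -0.24 for Cxcl5, 0.38 and -0.087 for Ccr2 and 0.12 and -0.16 for Ccl17, so that of the 4 Cxcl1 (1.22 and -1.02) still lay 1.5-fold apart both ways. With 1 array per group this difference between the diets was not tested. Some marker lists also had medians that were lower in LKO on chow and higher on HFD. Among them were exocrine pancreas (-0.92 and 1.90), cholangiocyte (-0.44 and 0.78), NK cell (-0.44 and 0.64), dendritic cell (-0.30 and 0.47) and T cell markers (-0.22 and 0.67). Macrophage, Kupffer, stellate and endothelium medians were higher on both diets, and the neutrophil median lower on both. The part of these cells was not tested. Cxcl5 and Cxcl1 share the receptor Cxcr2, which differed by -0.17 on HFD and -0.27 on chow.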

How the results depend on the processing

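No paired analysis was possible because each group has 1 array. Of 56 member differences of at least 2-fold over the 4 comparisons, 56 stayed there under quantile normalisation, the percentile over detected probes, the rescaled deposited table, or no filter and floor. Normexp kept 25 and put 31 under 2-fold in the same direction. Without rescaling, the deposited table kept 53, and it moved the median of all genes for HFD against chow in F/F from -0.02 to 0.11. Requiring all 4 arrays above background kept 41 and left 15 with no value, and requiring both arrays of the comparison kept 46 and left 10 with no value. The mean of all probes kept 53 and turned the direction of Cxcl14 for HFD against chow in LKO, to -0.65.

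In the counts that follow, the share of all genes under the same setting is in parentheses. For LKO against F/F on HFD, the number of members at least 2-fold higher went from 10 (2.36%) to 4 with normexp (0.613%) and to 20 at 1.5-fold (8.07%), and that lower from 1 (1.91%) to 2 without filter (3.79%). The median of 0.44 became 0.16 with normexp, 0.30 with all 4 arrays required and 0.31 without filter. On chow, the number higher went from 0 (1.11%) to 1 without filter (2.86%), 1 with the mean of probes (1.01%) and 3 at 1.5-fold (3.52%). The number lower went from 2 (1.03%) to 4 with the deposited table not rescaled (1.15%), 1 with all 4 arrays required (0.536%), 1 with both arrays of the comparison required (0.564%) and 6 at 1.5-fold (3.46%). The median of -0.15 became -0.037 with normexp and -0.026 without filter. For HFD against chow in F/F, the number higher went from 14 (5.21%) to 3 with normexp (1.41%) and 23 at 1.5-fold (13.2%), and the number lower from 5 (2.94%) to 3 with normexp (0.979%) and 3 with the table not rescaled (2.19%). The median of 0.70 became 0.27 with normexp, 0.84 with the table not rescaled, 0.41 without filter and 0.41 with the mean of probes. In LKO, the number higher went from 21 (8.12%) to 10 with normexp (2.92%) and the number lower from 3 (4.07%) to 5 without filter (6.43%). The median of 0.91 became 0.47 with normexp, 1.05 with the table not rescaled, 0.81 without filter and 0.76 with the mean of probes. Within an array, spots of the same probe differed with a SD of 0.436 for dim and 0.0758 for bright probes, which leaves out any spread between mice.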
